A study of Homo sapiens with 6 samples.

Results

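The genes of the carnitine shuttle and of mitochondrial and peroxisomal fatty acid oxidation were followed in BT-549 cells that had been grown in adipocyte-conditioned medium (ACM) or unconditioned medium (UCM). The set holds 38 genes that were listed by the known function of their products and matched by symbol, and all 38 were among the 63140 genes in the deposited output. BT-549 is an established human triple negative breast cancer line, and the cells were wild type, with no transgene in either group. Polyadenylated RNA was sequenced in read pairs from 3 cultures in ACM and 3 in UCM, each after 24 h. ACM was the supernatant of differentiated OP9 mouse adipocytes in a medium with insulin, oleate and albumin. The sample labels state that the cells received 50% ACM, whereas the study's supplement describes undiluted ACM. The formula of UCM is not given in the sources used here, so effects of adipocyte secretions, oleate, insulin, serum and base medium cannot be told apart. The labels do not say that replicates came from separate experiments, so the p-values measure only the spread among these cultures.

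Long-chain fatty acids enter mitochondria as carnitine esters. CPT1 on the outer membrane makes the acylcarnitine and is the step that malonyl-CoA inhibits, SLC25A20 carries it across the inner membrane, and CPT2 remakes the acyl-CoA in the matrix. Each round of beta-oxidation then takes an acyl-CoA dehydrogenase, a hydratase, a hydroxyacyl-CoA dehydrogenase and a thiolase, and the electrons pass through ETF to the respiratory chain, whereas peroxisomes shorten very long and branched chains with oxidases that make hydrogen peroxide. Many of these genes are known targets of the PPARs, nuclear receptors that bind fatty acids.

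Expected counts, rounded to whole numbers, totalled 17135288 to 21053257 per culture. Of all genes, 14451 passed the filter on low counts and were tested, with a biological coefficient of variation of 0.115. Markers of a mesenchymal-like line were abundant, at a summed 3030 to 3500 TPM (RSEM's transcript level, corrected for length and depth) in ACM and 2910 to 3000 in UCM. The labels call the cells epithelial, but EPCAM, KRT8, KRT18, KRT19 and CDH1 were each below 1 TPM in every culture, and ESR1 and PGR were at 0. ERBB2, listed with these markers, went the other way, at 26.45 to 28.54 TPM in ACM and 25.45 to 32.43 in UCM. Of 7 adipocyte markers, ADIPOQ, LEP and CIDEC had 0 TPM in all 6 cultures, and the summed level was 4.1 to 6.55 TPM in ACM and 3.35 to 4.09 in UCM. Nearly all of it was CFD, at 3.77 to 6.26 TPM in ACM and 2.99 to 3.93 in UCM (log2 FC 0.67, edgeR adjusted p 0.196). Immune markers summed to 12.3 to 30.6 TPM in ACM and 5.65 to 8.02 in UCM, nearly all of it CD68. CD68 was higher in ACM, with a log2 FC of 1.76 (edgeR adjusted p 0.0335). The part of these markers in the results was not tested. PTPRC did not exceed 0.18 TPM and CD3E was at 0, and the 2 endothelial markers summed to at most 0.05 TPM.

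Of the 38 genes, 36 were tested, and 4 rose in ACM at an adjusted p at or below 0.05 by edgeR's quasi-likelihood test with Benjamini-Hochberg adjustment over all genes tested. They were CPT1A, the CPT1 isoform of liver and most tissues; SLC25A20, the carnitine-acylcarnitine carrier; ACADVL, the very long chain acyl-CoA dehydrogenase; and ACAA2, the mitochondrial thiolase. That is 1 gene at each of 4 separate places of the mitochondrial route. Over all genes tested, 3.35% rose by this rule and 2.21% fell. None of the 36 fell by edgeR or by DESeq2. At an unadjusted p at or below 0.05, 8 of the 36 were higher and 2, CROT and HSD17B10, were lower, against 11.9% and 11.5% of all genes. The study's thresholds for UpDEGs and DownDEGs, a log2 FC of 0.58 in size and a p of 0.05, were applied here to edgeR's values with the unadjusted p. CPT1A, CPT1B and ACAA2 were UpDEGs by this measure and no gene of the set was a DownDEG, against 4.12% and 1.71% of all genes. In 11 genes all 3 ACM values lay above all 3 UCM values and in 2 genes all lay below, against 13.9% and 15.1% of all genes. The median log2 FC was 0.03 over the 36 genes and 0.01 over the 32 that were not called, against -0.01 over all genes tested. The 32 were set apart by this same test, which favours a value near 0. Because RNA was taken from whole cultures, a rise within each cell and a larger share of cells with the transcript cannot be told apart.

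**Figure D1:**
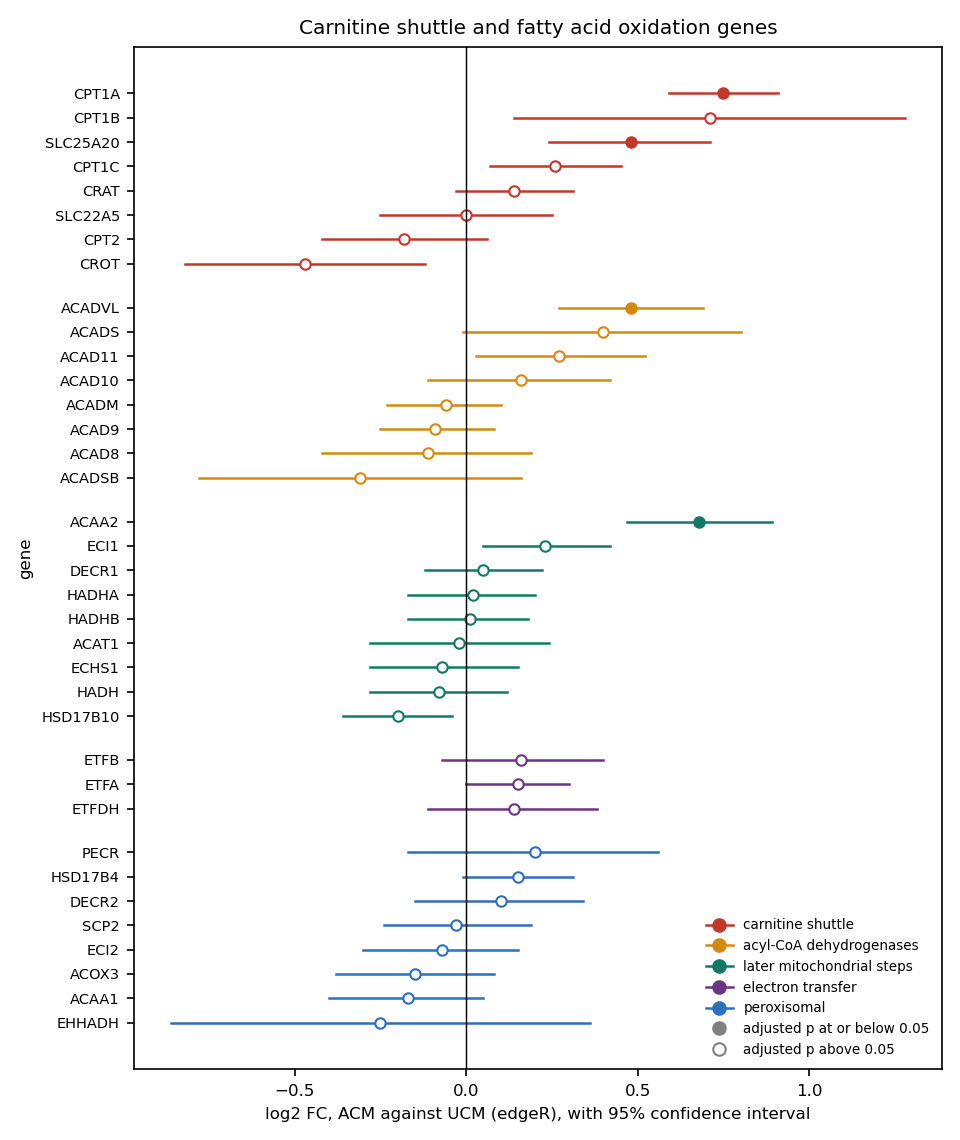
Log2 FC of ACM against UCM (x axis) for each of the 36 tested genes (y axis), grouped by step and colour, with lines for the 95% confidence interval and filled points for an adjusted p at or below 0.05. The filled points are CPT1A at 0.75, ACAA2 at 0.68, and SLC25A20 and ACADVL at 0.48 each, and most open points lie near 0.

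The promoters of the 4 genes that rose are shown because these genes moved in the same direction while most of their pathway did not pass the test. The windows come from RefSeq on GRCh38.p14, run 5′ to 3′ along the gene's strand from 250 bases before the start to 50 bases after it, and the capitals mark the GGGCGG box that SP1 binds, on either strand. RefSeq lists a pair of starts for ACADVL, and the upstream window comes first. The windows lie at chr11:68844228-68844527 (minus strand) for CPT1A, chr3:48898833-48899132 (minus strand) for SLC25A20, chr17:7216875-7217174 and chr17:7219688-7219987 (plus strand) for ACADVL, and chr18:49813484-49813783 (minus strand) for ACAA2.
CPT1A: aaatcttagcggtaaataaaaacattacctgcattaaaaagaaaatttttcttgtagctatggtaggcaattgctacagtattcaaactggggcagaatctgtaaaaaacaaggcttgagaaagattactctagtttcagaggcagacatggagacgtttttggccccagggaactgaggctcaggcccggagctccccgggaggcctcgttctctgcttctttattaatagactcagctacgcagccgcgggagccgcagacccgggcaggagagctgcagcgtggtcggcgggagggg
SLC25A20: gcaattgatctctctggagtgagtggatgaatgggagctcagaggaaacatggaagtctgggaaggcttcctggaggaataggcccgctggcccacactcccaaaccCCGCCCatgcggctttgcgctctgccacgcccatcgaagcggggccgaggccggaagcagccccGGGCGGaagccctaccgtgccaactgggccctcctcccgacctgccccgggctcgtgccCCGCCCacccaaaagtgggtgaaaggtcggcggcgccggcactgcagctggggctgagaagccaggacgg
ACADVL, upstream start: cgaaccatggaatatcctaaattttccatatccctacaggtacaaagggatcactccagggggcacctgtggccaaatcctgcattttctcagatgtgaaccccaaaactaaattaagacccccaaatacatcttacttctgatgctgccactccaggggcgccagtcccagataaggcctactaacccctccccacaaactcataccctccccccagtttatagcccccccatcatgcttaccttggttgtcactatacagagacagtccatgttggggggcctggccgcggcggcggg
ACADVL, downstream start: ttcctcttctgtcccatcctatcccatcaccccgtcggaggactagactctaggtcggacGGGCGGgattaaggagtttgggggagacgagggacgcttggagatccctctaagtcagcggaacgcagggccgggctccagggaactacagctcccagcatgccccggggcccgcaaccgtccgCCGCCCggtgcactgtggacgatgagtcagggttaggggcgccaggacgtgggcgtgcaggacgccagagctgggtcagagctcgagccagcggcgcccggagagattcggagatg
ACAA2: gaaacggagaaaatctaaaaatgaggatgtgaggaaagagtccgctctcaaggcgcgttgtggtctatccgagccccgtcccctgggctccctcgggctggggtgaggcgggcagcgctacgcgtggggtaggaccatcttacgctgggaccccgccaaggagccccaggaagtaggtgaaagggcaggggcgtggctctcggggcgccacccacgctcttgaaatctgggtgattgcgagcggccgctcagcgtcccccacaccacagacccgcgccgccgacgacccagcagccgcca

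The SLC25A20 window held 3 boxes and the downstream ACADVL window 2, whereas the CPT1A, ACAA2 and upstream ACADVL windows held none. Windows were found for 29 of the 38 genes, 39 in all because 9 genes have more than 1. GGGCGG was present in 31 of these 39 windows (79.5%) and in 45.0% of all 35116 windows, and the median GC content was 67.0% and 58.7%, respectively. CPT1A had the lowest GC content of the windows printed, at 50.0%, beside 67.0% for SLC25A20. The PPAR half-site AGGTCA, searched on both strands, was present in 1 of the 39 windows, that of ACAD10, and in 13.8% of all windows. Its direct repeat with 1 base between, which contains the half-site, was in none of the 39 and in 0.0228% of all. The E-box CACGTG, whose end letters can overlap those of the other motifs, was in 2 of the 39 windows, those of PECR and ACAD9, and in 7.26% of all. These are matches of letters within 300 bases and say nothing of the factors or of sites elsewhere.

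The median log2 FC of the shuttle was 0.20 over its 8 genes, of which 2 rose and none fell. It was above that of electron transfer, 0.15, from counts and below it with effective lengths as offsets, at 0.11 and 0.16. CPT1A (ENSG00000110090.13, chr11:68754620-68844410, minus strand, GRCh38) had 217.1, 248.7 and 229.6 CPM (the normalised read count, scaled for depth but not for length) in the ACM cultures and 131.1, 141.6 and 141.0 in the UCM cultures. Every ACM value was above every UCM value, with a wide gap between the groups. The means were 231.8 ± 15.9 and 137.9 ± 5.91 CPM (SD, n = 3 each), which is 1.68-fold, with a log2 FC of 0.75 (SE 0.07) and an adjusted p of 0.0010 by edgeR. On the length-corrected scale the levels were 80.2 ± 4.54 and 48.2 ± 2.33 TPM. The log2 FC stayed between 0.70 and 0.80 in 14 alternative settings and passed the threshold in all 14.

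The other CPT1 isoforms did not pass the threshold. CPT1C (ENSG00000169169.15, chr19:49690898-49713731, plus strand), the neuronal isoform of the endoplasmic reticulum with little catalytic activity, had 67.77, 65.56 and 56.58 CPM in ACM and 51.12, 52.53 and 54.69 in UCM. The groups did not overlap, but the lowest ACM value lay close to the highest UCM value, and the log2 FC was 0.26 (SE 0.08, edgeR adjusted p 0.0992). In TPM the CPT1C groups overlapped, at 60.97, 51.27 and 42.56 in ACM against 45.21, 43.17 and 41.08 in UCM. CPT1B (ENSG00000205560.14, chr22:50568861-50578465, minus strand), the muscle isoform, was scarce, with 6.083, 4.619 and 3.805 CPM in ACM and 3.79, 2.419 and 2.624 in UCM. The groups almost touched, and the log2 FC was 0.71 (SE 0.26, edgeR adjusted p 0.131). Effective lengths of CPT1B, which RSEM weights by the transcripts it assigns, were 1323, 1092 and 1391 bases in ACM and 817, 757 and 890 in UCM. With these lengths as offsets the log2 FC was 0.10 (edgeR adjusted p 0.891), and in TPM the groups overlapped at 6.51, 5.89 and 3.94 against 6.75, 4.46 and 4.25. CPT1B shares 2722 of its 4102 exon bases with the readthrough gene CHKB-CPT1B on the same strand, so the split of reads between them is uncertain. Adding both genes' counts, a sum chosen after the values were seen, gave 8.66 ± 1.60 CPM, here without TMM factors, in ACM and 6.00 ± 0.855 in UCM, with overlapping groups.

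CPT1A made up 58.6% ± 5.21 of the summed TPM of the 3 CPT1 genes in ACM and 50.0% ± 2.81 in UCM. CPT1A and CPT1C were therefore near the same level in UCM, with a TPM ratio of 1.12 ± 0.0977, and the ratio was 1.59 ± 0.319 in ACM. The ratios here and in later paragraphs were picked after the values were seen and are given as descriptions, without a test.

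SLC25A20 (ENSG00000178537.10, chr3:48856926-48898904, minus strand) had 47.0, 44.16 and 51.47 CPM in ACM and 29.42, 37.53 and 35.69 in UCM. The groups did not overlap. The means were 47.5 ± 3.69 and 34.2 ± 4.25 CPM, 1.39-fold, with a log2 FC of 0.48 (SE 0.11, edgeR adjusted p 0.0311). This call was less firm than that of CPT1A. The log2 FC ranged from 0.39 to 0.55 over the alternatives, but the adjusted p was past the threshold in 6 of 14. It was lost when any library other than UCM replicate 1 was left out, with adjusted p up to 0.0890, and also with effective lengths as offsets, at 0.0543. Fewer genes were called over the whole table in these fits too, at 1.32% to 4.23% against 5.56% in the main fit.

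CPT2 (ENSG00000157184.7, chr1:53196792-53214197, plus strand), the partner of CPT1 in the matrix, had 21.15, 22.25 and 22.29 CPM in ACM and 21.27, 26.77 and 26.36 in UCM. Its groups overlapped, and the log2 FC was -0.18 (SE 0.11, 95% confidence interval -0.42 to 0.06, edgeR adjusted p 0.368), an interval that does not reach the rise of CPT1A or SLC25A20. The TPM ratio of CPT1A to CPT2 was 6.15, 6.64 and 6.00 in ACM and 3.52, 2.99 and 3.15 in UCM. That of SLC25A20 to CPT2 was 3.56 ± 0.260 and 2.17 ± 0.0480. The 2 components before the matrix thus stood higher relative to the matrix enzyme in each ACM culture than in any UCM culture.

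**Figure D2:**
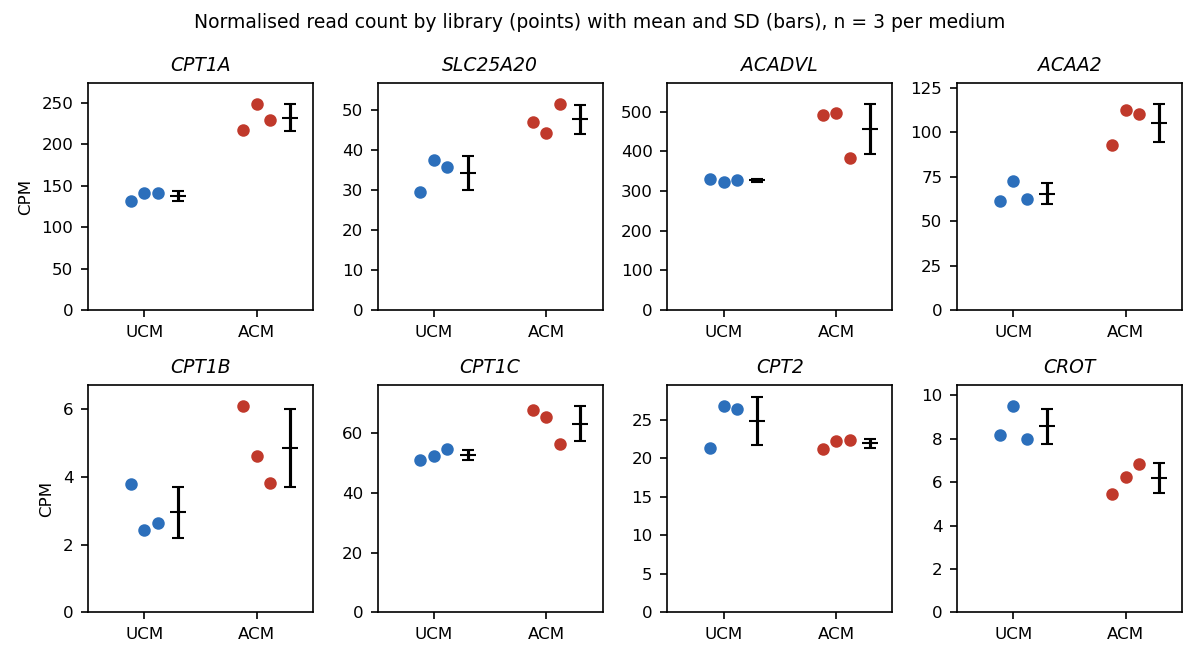
Normalised read count in CPM (y axis, from 0) of 8 genes in each UCM culture (blue) and ACM culture (red), with the mean and SD of 3 cultures in black beside the points. CPT1A, SLC25A20, ACADVL and ACAA2 lie higher in all ACM cultures, CPT2 overlaps between the media, and CROT lies lower in all ACM cultures.

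The other shuttle genes handle shorter chains or carnitine itself. CROT, the peroxisomal carnitine octanoyltransferase, had 5.465, 6.252 and 6.849 CPM in ACM and 8.197, 9.516 and 7.988 in UCM. All ACM values were below all UCM values, and the log2 FC was -0.47 (SE 0.16, edgeR adjusted p 0.112), past the threshold in none of the 14 alternatives. CRAT, the carnitine acetyltransferase, was more abundant at 116.5 ± 1.78 and 105.7 ± 8.87 CPM, with non-overlapping groups and a log2 FC of 0.14 (edgeR adjusted p 0.294). SLC22A5, the carnitine transporter of the plasma membrane, averaged 15.5 CPM in both media, with a log2 FC of 0.00 and a 95% confidence interval from -0.25 to 0.25.

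Among the 9 acyl-CoA dehydrogenases, 8 were tested and 1 rose. ACADVL (ENSG00000072778.20, chr17:7217125-7225266, plus strand), which opens the oxidation of long chains, had 490.9, 495.8 and 384.4 CPM in ACM and 329.8, 323.6 and 326.9 in UCM. The UCM cultures were nearly equal, and the lowest ACM culture lay between them and the other two. The means were 457.1 ± 63.0 and 326.8 ± 3.13 CPM, 1.40-fold, with a log2 FC of 0.48 (SE 0.09, edgeR adjusted p 0.0191). The log2 FC was 0.42 to 0.59 over the alternatives and passed in 8 of 14. It did not pass without ACM replicate 2 (0.0801), UCM replicate 2 (0.0886) or UCM replicate 3 (0.0714), nor with effective lengths as offsets (0.0694). Over all genes these fits called 1.32% to 2.81%, against 5.56% in the main fit. ACADVL overlaps DLG4, a synaptic scaffold gene on the opposite strand, by 49 of its 4820 exon bases, and strandedness of the libraries is not given in the sources used here. DLG4 was counted at 1704, 1403 and 1283 reads in ACM, against 1197, 932 and 874 in UCM, with a log2 FC of 0.54 (SE 0.09, edgeR adjusted p 0.00746). Both genes together, a sum chosen after the values were seen, came to 531.0 ± 66.1 and 380.3 ± 7.77 CPM without TMM factors, and the part of the overlap in either value was not tested.

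ACADM and ACADS, the medium and short chain enzymes, differed from each other in level. ACADM averaged 49.7 ± 2.49 and 52.0 ± 0.484 CPM, with overlapping groups and a log2 FC of -0.06 (95% confidence interval -0.23 to 0.10). ACADS was scarce, at 5.35 ± 0.574 and 4.06 ± 0.261 CPM, and its groups did not overlap, with a log2 FC of 0.40 (edgeR adjusted p 0.229). ACADSB and ACAD8, which act mainly on branched-chain amino acid products, had log2 FCs of -0.31 and -0.11, and ACAD9, which also helps assemble complex I, had -0.09. ACAD10 and ACAD11, less studied relatives, had 0.16 and 0.27, and the groups overlapped for all of these 5 genes. ACADL, the long chain dehydrogenase, had 0 counts in all 6 cultures, which allows up to 0.142 to 0.175 CPM by counting error alone (a limit of 3 counts).

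The 9 genes of the later mitochondrial steps contained 1 that rose. ACAA2 (ENSG00000167315.18, chr18:49782164-49813953, minus strand), the thiolase that releases acetyl-CoA, had 92.72, 112.5 and 110.6 CPM in ACM and 61.69, 72.58 and 62.57 in UCM. The groups did not overlap. The means were 105.3 ± 10.9 and 65.6 ± 6.05 CPM, 1.60-fold, with a log2 FC of 0.68 (SE 0.10, edgeR adjusted p 0.00477). It lay between 0.63 and 0.77 in the 14 alternatives and passed in all 14, as CPT1A did.

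HADHA and HADHB are the subunits of the trifunctional protein, which performs the hydratase, hydroxyacyl-CoA dehydrogenase and thiolase steps on long chains. Their log2 FCs were 0.02 (95% confidence interval -0.17 to 0.20) and 0.01 (-0.17 to 0.18). Their intervals lie below the estimate for ACAA2. The TPM ratio of ACAA2 to HADHB was 1.89, 2.06 and 1.92 in ACM and 1.25, 1.31 and 1.16 in UCM. HADH, the hydroxyacyl-CoA dehydrogenase of shorter chains, had a log2 FC of -0.08, ECHS1, the short chain hydratase, -0.07, and ACAT1, the acetoacetyl-CoA thiolase, -0.02. DECR1, the dienoyl-CoA reductase used for unsaturated chains, had 0.05, and groups of all these genes overlapped. ECI1, the isomerase used in the oxidation of oleate, had 50.57, 50.69 and 52.23 CPM in ACM and 39.42, 45.05 and 46.36 in UCM, which did not overlap, with a log2 FC of 0.23 (edgeR adjusted p 0.130). HSD17B10, a dehydrogenase that is also a subunit of mitochondrial RNase P, went the other way without overlap, at 63.0 ± 2.40 against 72.4 ± 3.36 CPM and a log2 FC of -0.20 (edgeR adjusted p 0.130).

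The 3 electron transfer genes were each a little higher in ACM, and none passed the threshold. ETFA, ETFB and ETFDH had log2 FCs of 0.15, 0.16 and 0.14 with edgeR adjusted p of 0.230, 0.387 and 0.498. ETFA, a subunit of the electron carrier, had 120.0, 125.6 and 124.0 CPM in ACM and 103.1, 113.1 and 116.9 in UCM without overlap. The groups of ETFB, the other subunit, and of ETFDH, which passes the electrons to ubiquinone, overlapped.

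None of the 8 tested peroxisomal genes of 9 passed the threshold, with an unadjusted p below 0.05 for 0 of them, and none passed in any of the 14 alternatives. Their median log2 FC was -0.05, and 3 were above 0 and 5 below. ACAA1, the peroxisomal thiolase, had 43.96, 36.61 and 37.29 CPM in ACM and 39.94, 46.94 and 46.18 in UCM, with a log2 FC of -0.17 (95% confidence interval -0.40 to 0.05). This interval lies wholly below that of its mitochondrial counterpart ACAA2, 0.47 to 0.89. The TPM ratio of ACAA2 to ACAA1 was 2.35 ± 0.440 in ACM and 1.21 ± 0.111 in UCM. ACOX3, a branched chain oxidase, had -0.15, SCP2, which carries and cleaves sterol and branched chain intermediates, -0.03, ECI2, an isomerase, -0.07, and DECR2, the peroxisomal dienoyl-CoA reductase, 0.10. ACOX2, the oxidase of bile acid intermediates, had 4 counts in ACM replicate 2 and 0 in the other 5 cultures, so it was not tested. No fold is given for it.

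Effective length differed by over 1.5 times between cultures for 5 genes, CPT1B among them, and 3 others of the 5 are tested peroxisomal genes. HSD17B4, the D-bifunctional protein, had lengths of 1302, 1992 and 1081 bases in ACM and 2284, 1561 and 1657 in UCM. Its log2 FC was 0.15 from counts and 0.52 with lengths as offsets, neither of which passed. EHHADH, the L-bifunctional protein, had lengths of 839, 2964 and 3525 against 3139, 1853 and 2408, with a log2 FC of -0.25 from counts and 0.07 with offsets. PECR, a trans-enoyl-CoA reductase, had 1303, 1477 and 1006 against 837, 829 and 1083. Its CPM values did not overlap, at 5.56 ± 0.0161 and 4.84 ± 0.161, with a log2 FC of 0.20 that turned to -0.25 with offsets. For ACOX2 the lengths were 377 bases in ACM replicate 2 and 648 to 655 bases elsewhere. The signs of EHHADH and PECR thus depended on the length correction, whereas CPT1A, SLC25A20, ACADVL and ACAA2 had similar values on both scales.

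**Figure D3:**
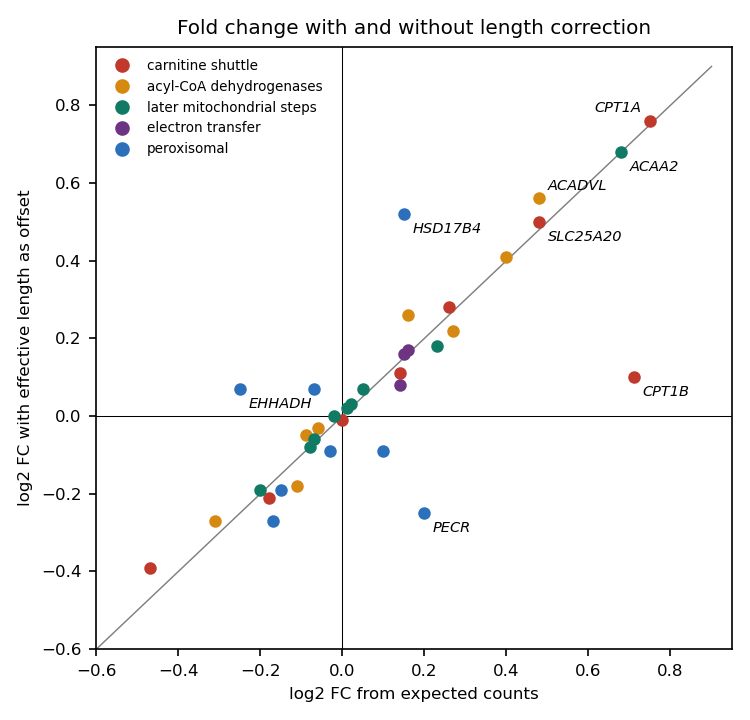
Log2 FC of ACM against UCM from expected counts (x axis) and with RSEM's effective lengths as offsets (y axis) for the 36 tested genes, coloured by step, with the line of equality in grey. CPT1A, ACAA2, SLC25A20 and ACADVL lie near the line, while CPT1B falls from 0.71 to 0.10, HSD17B4 rises from 0.15 to 0.52 and PECR turns from 0.20 to -0.25.

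On the TPM scale, on which genes can be compared, ACADVL was the most abundant of the 38, at 764.0, 669.78 and 524.25 TPM in ACM and 504.85, 422.89 and 426.77 in UCM. The next were ETFA, ACAT1, HSD17B10 and DECR1, each over 100 TPM in every culture. CPT1A ranked 15 and CPT2 ranked 27 by mean TPM. Summed over all 38 genes, the level was 2625, 2534 and 2531 TPM in ACM and 2174, 2278 and 2302 in UCM, or 0.256% ± 0.00535 and 0.225% ± 0.00681 of all TPM. That is 13.9% higher, without overlap. Without ACADVL the sums were 1911 ± 83.4 and 1800 ± 114 TPM and overlapped, so much of the difference in the total lay in that 1 gene. The 34 genes that were not called summed to 1688 ± 74.7 and 1657 ± 107 TPM. They were set apart by their test result in these same cultures, which favours a small difference between these sums. An exact permutation test of 3 against 3 cultures cannot give a p below 0.1, and none is given for these sums.

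By step, the summed level of the shuttle was 278.1 ± 4.92 TPM in ACM and 224.2 ± 12.2 in UCM. The acyl-CoA dehydrogenases summed to 791.3 ± 124 and 593.4 ± 45.6 TPM, and neither step overlapped between the media. ACADVL alone held 652.7 ± 121 and 451.5 ± 46.2 TPM of the dehydrogenase sums. The median log2 FC of the 8 tested dehydrogenases was 0.05, with 4 above 0 and 4 below. The later mitochondrial steps summed to 826.2 ± 55.1 and 809.8 ± 51.2 TPM, electron transfer to 287.4 ± 9.94 and 261.9 ± 22.0, and the peroxisomal genes to 380.5 ± 32.8 and 361.9 ± 29.6, each with overlap. The ratio of the mitochondrial to the peroxisomal sum was 5.04 ± 0.526 and 4.62 ± 0.318, also overlapping. The median log2 FC was 0.03 for the 20 tested mitochondrial genes, 2 of which rose, and -0.05 for the peroxisomal genes.

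**Figure D4:**
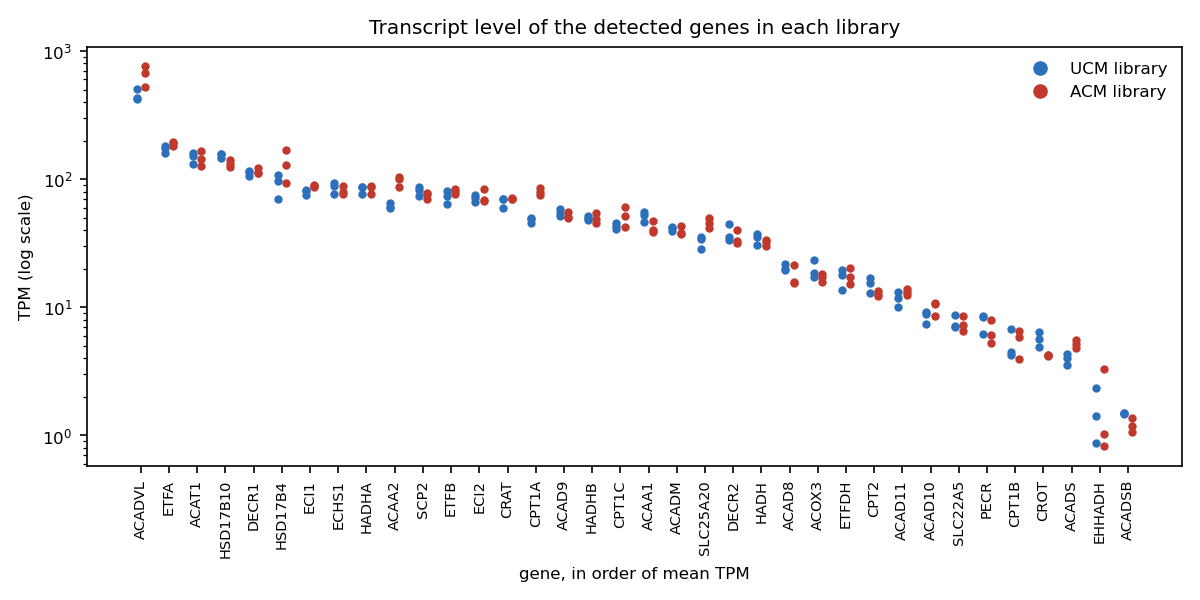
Level in TPM on a log scale (y axis) of the 36 genes with a mean over 0.5 TPM (x axis, in order of mean level), with a blue point for each UCM culture and a red point for each ACM culture. ACADVL stands above the others. The media separate at several genes, among them CPT1A, SLC25A20, ACAA2 and ACADVL and, lower in ACM, CROT and HSD17B10.

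Genes that surround the pathway were read from 9 lists with 60 genes, of which 46 were tested. In ACM 2 of them rose and 1 fell, which is near the shares over all genes tested, 3.35% and 2.21%. All of these were among the 9 tested of 16 PPAR targets outside the set, whose median log2 FC was 0.30. PDK4, the kinase that turns off pyruvate dehydrogenase, had 10.08, 52.33 and 17.83 CPM in ACM and 0.2843, 0.5914 and 0.1749 in UCM. The ACM cultures differed widely among themselves and all lay far above UCM. Its log2 FC was 6.22 (SE 1.00, edgeR adjusted p 0.0335), and it did not pass when any 1 UCM library was left out, with adjusted p of 0.129 to 0.195. ANGPTL4, a secreted inhibitor of lipoprotein lipase, had 222.5, 351.8 and 196.4 CPM in ACM and 29.66, 26.02 and 27.35 in UCM, with a log2 FC of 3.21 (SE 0.24, edgeR adjusted p 0.00294) that passed in all 14 alternatives. UCP2, an inner membrane carrier, had 47.76, 36.22 and 47.4 CPM in ACM and 54.82, 70.43 and 71.55 in UCM. Its groups did not overlap, and its log2 FC was -0.58 (SE 0.14, edgeR adjusted p 0.0440). The fall of UCP2 passed in 6 of 14 alternatives, and of those that left out 1 library only the one without UCM replicate 1 kept it. PLIN2, on the same list and an UpDEG in the paper, had 160.8, 600.8 and 184.5 CPM in ACM. In UCM it had 71.78, 82.91 and 87.7, so the groups did not overlap. Its log2 FC was 1.96 (SE 0.62), with an edgeR unadjusted p of 0.0289 and adjusted p of 0.161. It thus met the study's thresholds as applied here but was not called.

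No gene passed by edgeR in the other 8 lists. The counts at an unadjusted p that follow stand against 11.9% higher and 11.5% lower over all genes tested. Of 7 tested transcriptional regulators 4 were higher at an unadjusted p below 0.05. They were PPARA, PPARD, RXRB and ESRRA, with log2 FCs of 0.49, 0.27, 0.28 and 0.21. Their edgeR adjusted p were 0.0865, 0.0865, 0.0804 and 0.105. PPARG, with a log2 FC of 0.24 and overlapping groups, was not among them. Among 14 tested peroxisomal companions 4 were higher and 2 lower at an unadjusted p below 0.05. Of 4 tested acyl-CoA synthetases, which activate fatty acids, 1 was higher and 2 were lower by that measure. In the ketone body list 1 of 3 tested genes was higher by it, and of IVD and GCDH, dehydrogenases of amino acid breakdown, 1 was lower. The lists of malonyl-CoA control, AMPK catalytic subunits, and carnitine synthesis and other transport had 0 genes at an unadjusted p below 0.05. Over all lists DESeq2 called 3 genes higher and 1 lower.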

How the data were processed

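Per the labels and the paper, Trim Galore was used for trimming, STAR for alignment to GRCh38 and RSEM for quantification. As deposited, the expected count of a gene splits ambiguous reads and carries no scaling for depth. The deposited TPM values correct for effective length and library sum, the lengths were deposited too, and tool versions are not given in the sources used here. Their DESeq2 table of fold changes, standard errors, Wald scores and p-values, also deposited, was not used here. Symbols came from GENCODE 44, in which 61547 identifiers matched with their version (62541 with or without it). CPT1B matched without its version.

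Expected counts were rounded, filtered with filterByExpr, scaled with TMM and fitted in R 4.3.3 with edgeR 4.0.16 (robust quasi-likelihood, condition as the only term). Alternatives used DESeq2 1.42.0, limma 3.58.1 on log2(TPM + 1) and log2(TPM + 0.1), RLE factors, filters of 1 count in total and 10 per library, effective lengths as offsets, a replicate block, and each library left out in turn. Intervals and limits cover counting error or spread between cultures only. The 38 genes and the lists were chosen with earlier results of these data known. All 38 are named. Given in full are those with an adjusted p at or below 0.05, the CPT1 genes, CPT2 and SLC25A20. From the lists, up to 5 genes each at that threshold are named. DLG4, PLIN2, PPARA, PPARD, PPARG, RXRB, ESRRA, IVD, GCDH and CHKB-CPT1B were named after their values were seen.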

Additional observations from a re-analysis of the deposited data

How the results depend on the processing

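The count of genes of the set that rose was 4. It was 2 with limma-trend on log2(TPM + 1) or log2(TPM + 0.1) and 2 with effective lengths as offsets. The share of all genes called, higher or lower, was 5.56% in the main fit. It was 2.51% and 2.57% in these TPM fits and 2.81% with the offsets. With 1 library left out the count of the set was 2 to 5, the lowest without ACM replicate 2, UCM replicate 2 or UCM replicate 3. The share of all genes called was lowest in those fits too, at 1.93%, 1.32% and 1.48%, respectively. It was highest, at 8.92%, without UCM replicate 1. The count of the set that fell stayed at 0. CPT1A and ACAA2 passed in every setting. The median log2 FC of the shuttle was 0.08 and 0.09 in the TPM fits and 0.11 with length offsets, below electron transfer at 0.14, 0.14 and 0.16. Summed TPM of the set, a log2 ratio of 0.19, was 0.09 without ACADVL and 0.16 to 0.20 with a library left out. In the companion lists, 1 gene rose with the filter of 10 counts per library, which removed PDK4 with its 6, 11 and 3 counts in UCM. With the replicate block 7 rose, and 1 to 3 rose with a library left out. In the TPM fits and with length offsets 0 fell, and 0 to 2 fell with a library left out. The PPAR target median reached 0.70 without UCM replicate 1 (0.18 to 0.70 over libraries). The cause was not tested.

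Deviations of same-numbered libraries correlated at 0.318, 0.035 and 0.177, and those of differently numbered libraries at -0.015, -0.314, -0.223, 0.196, -0.156 and -0.017. Whether replicate numbers pair the cultures was not tested. With the replicate block 5 genes of the set rose, CPT1B being added, and 1612 of all genes were called in place of 804. Over all genes the number called was 195 without UCM replicate 2 and 1310 without UCM replicate 1.

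Signs turned for genes near 0. In the TPM + 1, TPM + 0.1 and offset fits the log2 FC was -0.03, -0.03 and -0.01 for SLC22A5, 0.04, 0.04 and 0.07 for ECI2, -0.11, -0.11 and -0.09 for DECR2, and -0.24, -0.27 and -0.25 for PECR. EHHADH was at 0.02 (TPM + 1) and 0.07 (offsets), and HADHB at -0.01 in both TPM fits. With a library left out, the values over the 6 fits were -0.06 to 0.06 for SLC22A5, -0.04 to 0.08 for HADHA, -0.04 to 0.07 for HADHB, -0.15 to 0.01 for ECHS1 and for ECI2, -0.10 to 0.06 for SCP2 and -0.11 to 0.10 for ACAT1. Of the values recomputed for named genes 495 kept their direction and call, 32 changed sign, 29 lost the call and 3 gained it. Depth limits CPT1B, CROT, ACADS, ACADSB, EHHADH and PECR, all under 10 CPM.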
